A study of Mus musculus with 3 samples.

Results

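Semaphorins, plexins and neuropilins were measured in pancreatic ductal cells with and without Fbw7 and in beta cells of adult mice. The members were all gene symbols of the series Sema3 to Sema7, Plxna to Plxnd, Nrp1 and Nrp2 that had a probe set (the group of probes read as 1 value) annotated to that gene only. The rule found 31 of 19938 genes: 20 semaphorins, 9 plexins and 2 neuropilins. It used gene names and no measured value to pick the genes, but it was set with earlier results of these data known. Where a gene had several probe sets, the brightest on average was taken.

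Semaphorins are signalling proteins first known as repellents of growing axons. Class 3 members are secreted, classes 4 to 6 span the membrane and Sema7a is held by a lipid anchor. Plexins are their receptors and act on small GTPases of the cytoskeleton, and most class 3 semaphorins need a neuropilin as the ligand-binding partner of an A-class plexin. Neuropilins also bind vascular endothelial growth factor (VEGF). In epithelia and vessels the same families guide cell migration, adhesion and branching.

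The study had 3 arrays, 1 for each group, all from C57BL/6 mice over 6 weeks of age. Mice of both ductal groups carried Ck19-CreERT and R26-LSL-YFP; they were Fbw7 +/+ in the group called Fbw7 WT and Fbw7 F/F in the group called Fbw7 KO, with 6 animals pooled for each. Both ductal groups received tamoxifen on 5 days, were collected 7 days after the last injection and were sorted on YFP, so that any cell in which the cytokeratin 19-driven Cre had acted could enter the sort. Beta cells came from 3 pooled Fbw7 +/+; MIP-GFP mice without tamoxifen and were sorted on GFP, so cell type, reporter and tamoxifen cannot be told apart in comparisons with them. Fbw7, the protein of Fbxw7, is the part of a ubiquitin ligase that recognises Myc, Jun and Notch proteins for degradation. With 1 pooled array per group there was no replicate and no spread, no test was possible, and every difference below describes these arrays. In pooled cells, fewer cells of a type and less RNA per cell cannot be told apart.

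Values are log2 intensities. A level is called low when it lay below the median of all single-gene probe sets on its array, which was 5.30 in beta cells, 5.23 in WT and 5.24 in KO ductal cells; this median is called the floor. A gene entered a comparison when the higher of its levels was above the floor of that array. By this measure 25 of the 31 genes were above the floor on at least 1 array, 18 of them on all 3, and 6 on none. Where 1 level lay below the floor, the fold is taken against the floor and written "at least".

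The sorted pools were not of 1 cell type by their markers. Of 14 measured duct markers, 11 were above the floor in WT and 12 in KO ductal cells, with Cftr (4.95 and 5.13) and Car2 (4.53 and 5.09) below it in both and Prom1 (4.91) below it in WT. Of 11 beta cell markers, 7 were above the floor in beta cells, and Pdx1 (5.14), G6pc2 (4.83), Pcsk1 (4.73) and Neurod1 were not. Of the 7, 6 read higher in beta than in WT ductal cells, and Mafa was identical on all 3 arrays at 5.49. The insulin gene Ins2 read 11.04 in beta and 5.31 in WT ductal cells, Iapp 9.86 and 3.78, and Slc30a8 6.84 and 4.02. The beta cell array also held signal of other islet cells: Gcg, the glucagon gene, read 11.00 and Sst, the somatostatin gene, 11.04 there, against 4.77 and 5.06 in WT ductal cells. All 6 measured markers of those cells were above the floor in it. Summed on the linear scale, 10 mesothelial markers reached an intensity of 9614 in WT and 9405 in KO ductal cells against 423 in beta cells. The summed intensity of 12 mesenchymal markers was 11810, 7652 and 2230 in the same order, and that of 14 duct markers 2898, 6391 and 1277. For 13 acinar markers the sums were 12850, 33280 and 44310, and for 12 endothelial markers 453, 465 and 915. Fbxw7 itself read 4.95 on all 3 arrays with 1 probe set, and 6.32 in WT, 5.71 in KO ductal and 7.00 in beta cells with the other. The labels do not place these probes against the floxed exons, so the values are no check of the deletion.

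Promoter sequence is shown for 3 ligand genes that the results turn on. Sema3a was the member that differed most between the ductal arrays, and Sema3c and Sema5a were the members that differed most between ductal and beta cells. Each line is a RefSeq window on GRCm38.p6 from 250 bases before to 50 bases after an annotated start, on the plus strand and written 5′ to 3′. The windows are chr5:13396534-13396833 for Sema3a, chr5:17574566-17574865 for Sema3c and chr15:32244563-32244862 for Sema5a. The Sema3a window lies inside the annotated gene, downstream of its outermost start. Capitals mark matches to the GC box GGGCGG on either strand.
Sema3a: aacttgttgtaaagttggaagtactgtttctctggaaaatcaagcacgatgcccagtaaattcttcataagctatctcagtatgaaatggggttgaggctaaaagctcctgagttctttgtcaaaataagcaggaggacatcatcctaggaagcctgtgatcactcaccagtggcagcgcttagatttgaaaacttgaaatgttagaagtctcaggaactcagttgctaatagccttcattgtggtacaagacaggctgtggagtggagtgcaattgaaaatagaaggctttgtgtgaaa
Sema3c: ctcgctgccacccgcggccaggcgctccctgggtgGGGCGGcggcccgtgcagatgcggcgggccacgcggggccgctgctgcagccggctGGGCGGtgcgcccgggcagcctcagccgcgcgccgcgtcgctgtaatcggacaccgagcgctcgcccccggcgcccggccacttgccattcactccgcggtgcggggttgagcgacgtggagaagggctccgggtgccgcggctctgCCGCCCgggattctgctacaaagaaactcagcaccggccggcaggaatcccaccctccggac
Sema5a: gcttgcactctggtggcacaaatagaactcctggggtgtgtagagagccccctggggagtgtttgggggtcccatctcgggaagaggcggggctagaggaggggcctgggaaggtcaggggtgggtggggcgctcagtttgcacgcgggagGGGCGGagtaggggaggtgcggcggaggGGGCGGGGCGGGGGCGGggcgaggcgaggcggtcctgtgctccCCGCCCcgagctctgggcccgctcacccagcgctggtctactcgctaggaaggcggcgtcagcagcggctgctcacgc

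Windows were found for 26 of the 31 genes, 37 windows in all, 8 genes having several. Sema3a had the lowest GC content of them at 41.3%, with 2 CpG sites and 0 GC boxes. Sema3c had the highest at 75.7%, with 42 CpG sites and 3 GC boxes, and Sema5a had 71.3%, 23 CpG sites and 5 GC boxes, some of them overlapping. The median GC content was 63.7% over the members' windows and 52.7% over all 32851 windows. The GC box was in 27 of 37 members' windows (73.0%) and in 35.7% of all windows. The TATA box TATAAA, searched on both strands like the motifs that follow, was in 0 of 37 and in 13.6% of all windows. Motifs of Myc, of AP-1, which holds Jun, and of RBPJ, the DNA-binding partner of Notch, were rare in both. The Myc E-box CACGTG was in 3 windows (8.11%, against 7.15% of all), those of Sema3e, Sema4b and Sema6d. The AP-1 motif TGAGTCA was in 2 (5.41%, against 5.20%), those of Sema4c and Sema6b. The RBPJ motif GTGGGAA was in 1 (2.70%, against 6.38%), that of Plxnb2. None of these motifs was in the printed windows, which says only that the letters are not there.

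**Figure D1:**
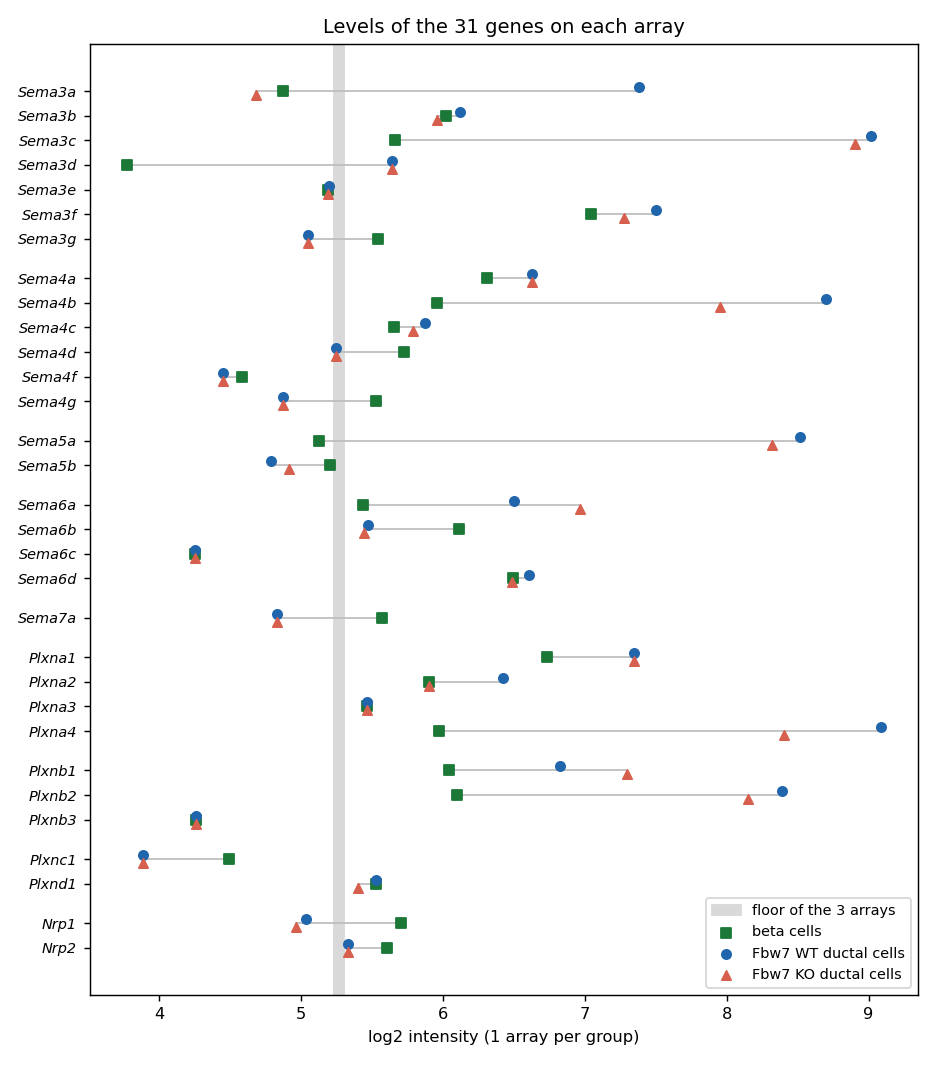
Log2 intensity (x axis) of each of the 31 genes (y axis, grouped by class) in beta cells (squares), Fbw7 WT ductal cells (circles) and Fbw7 KO ductal cells (triangles), 1 array each; marks are set slightly apart vertically. The grey band spans the floors of the arrays, 5.23 to 5.30; Sema3a is the member whose ductal arrays lie far apart, at 7.38 and 4.68.

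The comparison of KO with WT ductal cells asks which transcripts of these families differ after Fbw7 deletion. Sema3a, the secreted ligand that signals through neuropilin-1 and A plexins, read 7.38 in WT and 4.68 in KO ductal cells, and 4.87 in beta cells. It was above the floor in WT ductal cells and below it on the other arrays. The difference was -2.69 as measured and -2.14 against the floor, or at least 4.40-fold lower in KO cells. Sema3a included, 6 of the 10035 genes entered had a measured difference as low or lower, and 10 did with levels raised to the floor. Sema3a was the 1 member of 21 that was at least 2-fold apart, in a comparison where 3.25% of all genes were. No member was 2-fold higher, against 1.43% of all genes, and 1.81% of all genes were 2-fold lower.

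The other secreted semaphorins differed little between the ductal arrays. Sema3c, a class 3 ligand known from heart outflow and lung development, read 9.02 in WT and 8.91 in KO cells. Sema3f, a neuropilin-2 ligand, read 7.50 and 7.28, and Sema3b read 6.12 and 5.96. Sema3d was identical in both at 5.64, as was Sema3g at 5.05, below the floor. Sema3e, the plexin D1 ligand that acts without a neuropilin, was below the floor in both, at 5.19 and 5.19. The differences of these 6 genes lay between -0.22 and 0.

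Sema3d, Sema3a, Sema3e and Sema3c lie in this order on chromosome 5 in the RefSeq annotation, within a run of 22 protein-coding genes that holds 18 other genes. Of those 18, 4 had a single-gene probe set. Cacna2d1, a calcium channel subunit gene named after its value was seen, read 6.17 in WT ductal, 5.13 in KO ductal and 5.14 in beta cells, and was above the floor in WT ductal cells only. Its difference between the ductal arrays was -1.04 as measured and -0.93 against the floor, under 2-fold. The other 3, Speer3, Pclo and Hgf, were below the floor in both ductal arrays, with differences of 0, 0.31 and 0.

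Among membrane-bound ligands, Sema4b read 8.70 in WT and 7.95 in KO ductal cells, a difference of -0.75 or 1.68-fold. Sema6a, a ligand of A plexins, read 6.50 and 6.97 and was 1.38-fold higher in KO cells, at 0.47. Sema5a, a transmembrane semaphorin with thrombospondin repeats, read 8.52 and 8.32. Sema4c, a plexin B2 ligand, read 5.87 and 5.79, Sema6b 5.47 and 5.45, and Sema6d, a plexin A1 ligand, 6.61 and 6.49. Sema4a (6.63) and the plexin B1 ligand Sema4d (5.25) were identical in both. Sema4f, Sema4g, Sema5b, Sema6c and Sema7a were below the floor in both ductal arrays. Of these differences, that of Sema4b was the most negative and that of Sema6a the 1 above 0 among members that entered.

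Receptor genes were higher or lower in KO cells by less than 2-fold. Plxna4, a receptor for class 3 and class 6 ligands, read 9.09 in WT and 8.41 in KO cells, a difference of -0.68 or 1.60-fold. Plxna2 read 6.42 and 5.90, a difference of -0.52. Plxnb1, the Sema4d receptor, read 6.82 and 7.30 and was 1.39-fold higher in KO cells, at 0.48. Plxnb2 read 8.39 and 8.15, and the endothelial receptor gene Plxnd1 5.53 and 5.40. Plxna1 (7.35) and Plxna3 (5.47) were identical in both arrays, and Plxnb3 (4.26) and Plxnc1 (3.89), the Sema7a receptor gene, were identical and below the floor. Nrp1, the main neuropilin for Sema3a, was below the floor in both ductal arrays, at 5.03 and 4.96, and Nrp2 read 5.33 in both.

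Over the 21 members that entered, 13 were lower, 2 higher and 6 identical in KO cells, where 35.4% of all genes entered were lower, 16.4% higher and 48.2% identical. The median difference was -0.11 over these 21, 0 over all 31 and 0 over all genes. Differences of this size have no replicate behind them. The 15 signs were unchanged under quantile normalization, centring of each array and removal of a loess trend. Centring moved every difference by the same -0.03 and could turn none of these signs. Of the 12 mesenchymal markers 11 were lower in KO cells as well, with Pdgfra lowest at -1.99, and the median difference was -0.69. The 1 higher marker, Rgs5, was at 0.66 as measured and 0.07 against the floor. The 12 duct markers that entered were all higher (median 1.30), as were 11 of 12 acinar markers (median 1.77). Of 9 mesothelial markers 5 were higher, 3 lower and 1 identical (median 0.01). Of 4 leukocyte markers that entered, 3 were lower and 1 identical (median -0.48). The part of these shifts in cell markers in the values of Sema3a, Sema4b, Plxna4, Plxnb1 and Sema6a was not tested. Of 7 measured neural and Schwann cell markers only 2, Ncam1 and Ngfr, entered the comparison, and all 7 were identical in both ductal arrays, as were 59.1% of all genes; a part of such cells in these values was not tested.

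A list of partners of semaphorin signalling, chosen by role, held 45 measured genes. In KO cells, 1 of 36 was 2-fold higher and 1 was 2-fold lower, against 1.43% and 1.81% of all genes. By any amount 18 were lower, 2 higher and 16 identical, against 35.4%, 16.4% and 48.2% of all genes, and the median was -0.01. Rnd1, a GTPase that binds plexin cytoplasmic domains, read 6.76 in WT and 5.67 in KO cells (-1.09). Dpysl4, of the family that relays Sema3a signals to microtubules, read 5.17 in WT, below the floor, and 6.33 in KO cells (1.16, at least 2.13-fold higher). Trem2, a myeloid receptor linked to plexin A1, was at -0.87 and Erbb2, a kinase that associates with B plexins, at 0.23. In 20 members of other guidance families (slits, netrins, ephrins and their receptors) 0 were 2-fold apart, from the ephrin receptor Epha4 at -0.74 and the Robo ligand Slit3 at -0.64 to the ephrins Efnb3 at 0.12 and Efna1 at 0.62. Among 7 VEGF ligands and receptors, which share neuropilins, 0 were 2-fold apart; the lymphatic factors Vegfd and Vegfc were at -0.69 and -0.61, while Vegfa was at 0.04 and its receptor Flt1 at 0.

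**Figure D2:**
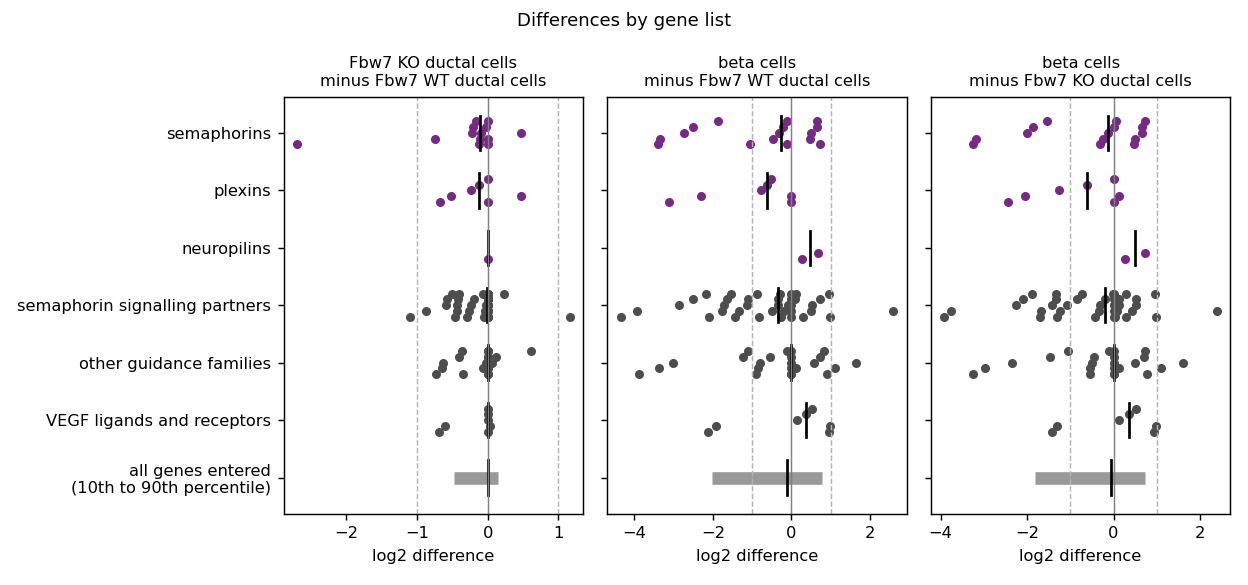
Log2 difference (x axis) of each gene that entered, by list (y axis), in the 3 comparisons of arrays; purple dots are the members, grey dots other lists, black bars medians, and dashed lines mark 2-fold. The grey bar at the bottom spans the 10th to 90th percentile of all genes entered; in the left panel Sema3a, at -2.69, lies apart from the other members.

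Beta cells were compared with WT ductal cells to see which members differ between these 2 mixed pools. Of 14 measured duct markers, 10 were above the floor in the beta cell array as well. Among the 11 duct markers that entered, 6 were lower, 4 higher and 1 identical in beta cells, with a median of -0.78. Of 25 members that entered, 8 were at least 2-fold lower in beta cells and 0 were 2-fold higher, where 25.8% of all genes were lower, 6.37% higher and 32.2% apart in either direction. The count of lower members was thus near the background. They were 6 semaphorins (Sema5a, Sema3c, Sema4b, Sema3a, Sema3d and Sema6a) and 2 plexins (Plxna4 and Plxnb2). By any amount, 16 of the 25 were lower, 7 higher and 2 identical, against 53.8%, 27.3% and 18.9% of all genes. The median difference was -0.32 over the 25 and -0.11 over all genes.

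Sema5a read 5.13 in beta cells, below the floor, against 8.52 in WT ductal cells, and was at least 9.30-fold lower in beta cells. Sema3c read 5.66 against 9.02, a difference of -3.35 or 10.2-fold. Plxna4 read 5.97 against 9.09 (-3.12) and Sema4b 5.96 against 8.70 (-2.74). Plxnb2, a receptor for class 4 ligands, read 6.10 against 8.39 (-2.29). The sizes depended on scaling. With the loess trend removed Sema5a was at -2.73, Sema3c at -2.33, Plxna4 at -1.99, Sema4b at -1.73 and Plxnb2 at -1.34. After quantile normalization they were at -3.08, -2.84, -2.50, -2.12 and -1.61 in the same order. These genes were far apart between the beta cell and WT ductal arrays, while their differences between KO and WT ductal cells lay between -0.75 and -0.11. Sema6a read 5.44 against 6.50, a difference of -1.06 that was -0.92 after quantile normalization and -0.90 with the loess trend removed, under 2-fold. Sema3d read 3.77 against 5.64 (-1.87), but 5.64 is near the floor and the difference was -0.33 against it. Sema3a, at 4.87 against 7.38, was at least 4.21-fold lower in beta cells than in WT ductal cells.

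Members that read higher in beta cells did so by less than 2-fold, from WT ductal levels at or below 5.47. Sema7a read 5.57 in beta and 4.83 in WT ductal cells (0.74, at least 1.26-fold). Nrp1 read 5.70 against 5.03 (0.67, at least 1.38-fold) and Nrp2 5.60 against 5.33 (0.27). Sema4g read 5.52 against 4.87, Sema6b 6.11 against 5.47, Sema3g 5.54 against 5.05 and Sema4d 5.72 against 5.25. The 7 genes kept this direction under quantile normalization, centring and the loess trend. Sema7a, Nrp1, Sema4g and Sema3g, below the floor in WT ductal cells, could enter only by being higher in beta cells. The rule of entry thus set their direction. Of all 31 members, 4 (Sema7a, Nrp1, Sema4g and Sema3g) were above the floor in beta cells and below it in both ductal arrays. Over all genes this share was 6.16%. Markers of other cells were higher in the beta cell array too: 6 of 6 of other islet cells (median 3.47) and 11 of 12 acinar (2.21). So were 9 of 10 endothelial (1.11, or 0.89 against the floor) and 8 of 9 leukocyte markers (0.81, or 0.54). A marker below the floor in WT ductal cells could enter only when higher in beta cells, which partly sets these counts. In WT ductal cells 4 endothelial and 4 leukocyte markers were above the floor, against 10 and 9 in beta cells. Neuropilins and some semaphorins are also transcribed in vessels and leukocytes, and the part of any of these cells in the values was not tested.

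The direction of small differences depended on scaling. Of 16 members lower in beta cells, 11 stayed lower under all 3 scalings. Plxna1, Sema3b, Sema3f, Sema4a and Sema6d turned: Sema3f was at -0.46 as deposited, 0.48 after quantile normalization and 0.52 with the loess trend removed. Plxna1 went from -0.61 to 0.20 and 0.21. The scalings moved the median over all genes from -0.11 to 0.09 with quantile normalization, to -0.31 with centring and to 0.03 with the loess trend, so that the members' median went from -0.32 to 0.01 with quantile normalization. Among all genes 2-fold apart, 19.8% were higher in beta cells as deposited, 37.3% after quantile normalization and 35.0% with the loess trend. The median difference of mesothelial markers was -5.21 (8 of 9 lower in beta cells) and that of mesenchymal markers -1.99 (11 of 12 lower). Their part in the lower Sema3c, Sema5a, Sema4b, Plxna4 and Plxnb2 values was not tested.

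**Figure D3:**
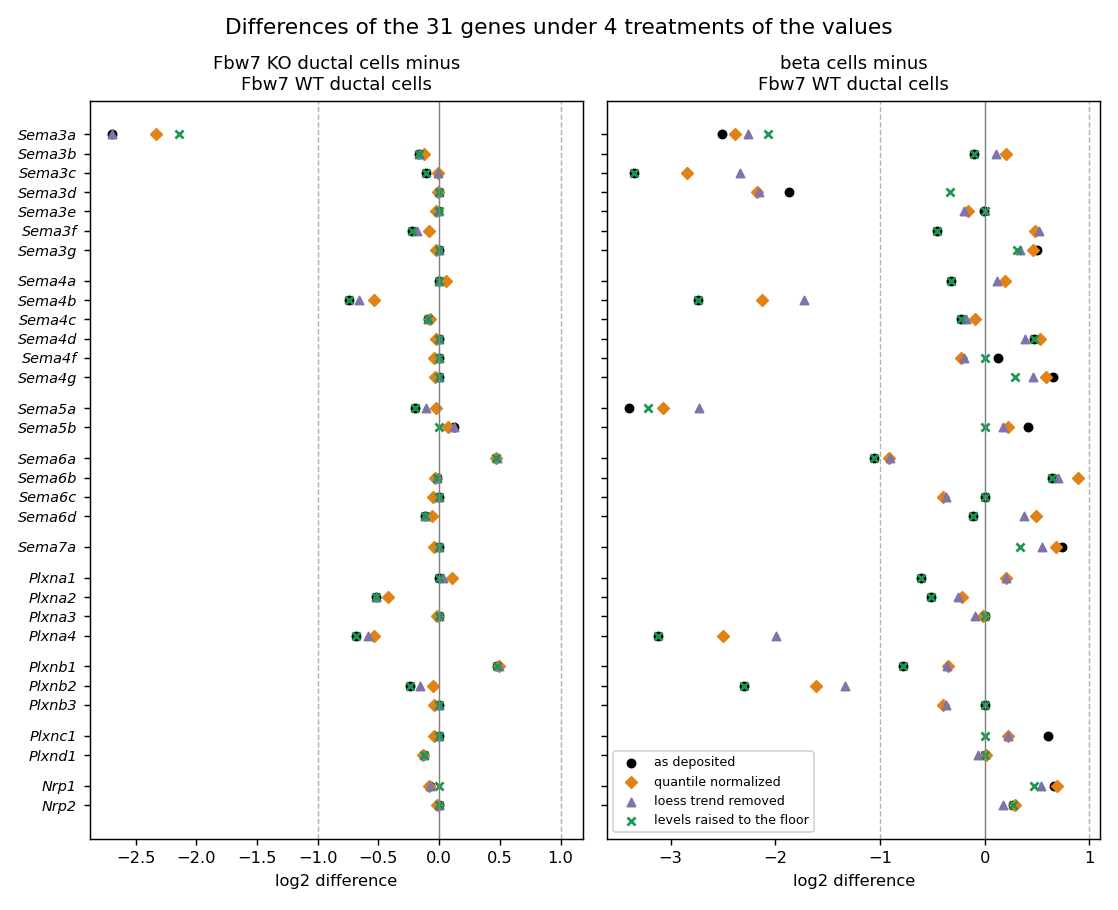
Log2 difference (x axis) of each member (y axis, same order as the plot of levels) for KO minus WT ductal cells (left) and beta cells minus WT ductal cells (right), as deposited, after quantile normalization, with a loess trend removed and with levels raised to the floor; dashed lines mark 2-fold. On the left Sema3a is at -2.69 as deposited and -2.14 with levels raised to the floor, and on the right Sema3f and Plxna1 change sign with quantile normalization and with the loess trend.

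Against KO ductal cells, beta cells again had 8 members at least 2-fold lower, of 24 entered, and 0 higher; over all genes 23.0% were lower, 5.13% higher and 28.1% apart. This comparison shares the beta cell array with the one before and the KO array with the first, so the values are given side by side and not as support. The 8 genes held Plxnb1 (6.04 against 7.30, -1.26) and not Sema3a, which was below the floor in both, at 4.87 and 4.68. Sema3c was at -3.24, Sema5a at -3.19 (-3.01 against the floor), Plxna4 at -2.44, Plxnb2 at -2.05, Sema4b at -1.99, Sema3d at -1.87 and Sema6a at -1.53. Plxnb1 was at -0.85 after quantile normalization and -0.78 with the loess trend removed, and Sema3d at -0.33 against the floor. The loess trend also made other differences smaller: Sema5a was then at -2.69, Sema3c at -2.43, Plxna4 at -1.68, Sema4b at -1.36 and Plxnb2 at -1.33. By any amount, 12 of the 24 were lower, 10 higher and 2 identical, against 51.3%, 27.8% and 20.9% of all genes. The members' median was -0.07, against -0.05 over all genes.

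Of 37 partners of semaphorin signalling that entered, 14 were at least 2-fold lower in beta than in WT ductal cells and 1 was higher, where 25.8% of all genes were lower and 6.37% higher. By any amount 23 of the 37 were lower, against 53.8% of all genes, and the median was -0.33. Chl1, an adhesion molecule that associates with neuropilin-1, read 4.31 in beta cells, below the floor, and 8.65 in WT ductal cells, at least 10.2-fold lower. Met, the hepatocyte growth factor receptor that associates with B plexins, read 4.73 against 8.64, at least 10.1-fold lower. The 1 higher gene, Tyrobp, the adaptor of Trem2 in myeloid cells, read 7.36 against 4.77, at least 4.37-fold higher, and Flt1 was at 0.98. Against KO ductal cells 13 of 37 were 2-fold lower and 1 higher, where 23.0% of all genes were lower and 5.13% higher. Met was then at least 10.1-fold and Chl1 at least 6.83-fold lower, Tyrobp at least 4.35-fold higher and Flt1 at 0.98. Of 23 genes of other guidance families, 5 were 2-fold lower and 2 higher in each comparison, shares near those of all genes (25.8% and 6.37% against WT, 23.0% and 5.13% against KO ductal cells). The 2 higher genes were under 2-fold against the floor. Against WT ductal cells, Neo1, the netrin receptor neogenin, was at -3.88 and Efna5 at -3.38, with Unc5c at 1.10 and the Slit receptor Robo2 at 1.64 (0.24 and 0.62 against the floor). Against KO ductal cells Neo1 was at -3.25 and Efna5 at -2.98, with Unc5c and Robo2 at 0.24 and 0.62 against the floor. Of 7 VEGF genes, Vegfd (-2.12) and Vegfc (-1.92, or -1.56 against the floor) were 2-fold lower than in WT ductal cells, while Vegfa was at 0.96 and Flt1 at 0.98. Against KO ductal cells Vegfd was at -1.43 and Vegfa at 0.93, and Vegfc, at -1.31 as measured, was at -0.95 against the floor, under 2-fold.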

How the data were processed

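RNA of 30000 sorted cells per group (18 ng) was amplified, labelled with biotin and hybridised to 1 array per group, per the labels' protocols. The deposited values are log2 intensities per probe set, made by the authors with RMA per the submitters' processing notes; the notes give neither its version nor which arrays were normalized jointly. The 3 arrays did not share 1 distribution (SD 1.57 in beta, 2.02 in WT and 1.97 in KO ductal cells), and 59.1% of genes were identical in both ductal arrays, which draws medians to 0. GEO's platform annotation named 1 gene for 21789 of 35556 probe sets, several for 1621 and none for 12146; 21698 matched RefSeq (GRCm38.p6) by gene ID. For genes with several probe sets, the one with the highest mean was used, 2 members among them.

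The members and lists were chosen with earlier results of these data known. Named genes are all members, the 2 highest and 2 lowest of each pathway list, and markers; Cacna2d1 and its neighbours were chosen after their values were seen. Differences of log2 values were computed with no test, since 1 array per group gives no spread; the number of arrays limits the precision. Also tried were all genes without a floor, the 75th percentile as floor, quantile normalization, centring, a loess trend (span 0.3), the mean of probe sets, levels raised to the floor, and 1.5-fold and 4-fold thresholds. The comparison step, quantile normalization and loess trend were tested on simulated ductal arrays, with changes planted in genes at higher levels. Beta cell comparisons, exact ties and levels raised to the floor were not simulated. Software was statsmodels 0.14.6, pandas 2.3.3 and numpy 2.4.6 in Python 3.11.15, with plots by matplotlib 3.10.9.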

Additional observations from a re-analysis of the deposited data

How the results depend on the processing

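The 2-fold count of KO against WT ductal cells was 1 in all alternatives run except the 1.5-fold threshold, which gave 3, with Sema4b and Plxna4 added. For beta against WT ductal cells the count of 8 was 6 to 8 in the others and 14 at 1.5-fold (10 lower, 4 higher). For beta against KO ductal cells it was 7 or 8, 13 at 1.5-fold (9 lower, 4 higher) and 4 at 4-fold. The threshold itself makes these changes. The members' median moved by less than 1.5-fold in each alternative, but turned from -0.32 to 0.01 and from -0.07 to 0.15 with quantile normalization in the beta cell comparisons. No member past 2-fold reversed. No paired analysis was possible because each group has 1 array. Low levels limit what 10 members can show between the ductal arrays, since both of their values lay below the floor.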

Other observations

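Exact ties between arrays reached across cell types. Plxna2 and Sema3e held the same value in beta and KO ductal cells and another in WT ductal cells, as did the partners Rnd1, Trem2 and Dpysl5; this was so for 775 genes (3.89%). The opposite tie, beta cells equal to WT and not to KO ductal cells, held for Plxnd1 and for 373 genes (1.87%). Of 182 genes at least 2-fold lower in KO than in WT ductal cells, 15 (8.24%) held the same value in beta and KO ductal cells, Rnd1 among them. Sema6c, Plxna3 and Plxnb3 were identical on all 3 arrays, as were 21.2% of all genes.

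Both members with more than 1 probe set gave close values. The Sema6b probe sets were equal on all 3 arrays, as were at least 2 probe sets of 51 of 999 genes with several (5.11%). The Sema4d probe set that was not used read 5.05 in WT and 5.17 in KO ductal cells, below the floor, where the one used read 5.25 in both.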
